A study of Elaeis guineensis with 38 samples.

Results

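H3K27me3 was compared between 5 mantled and 5 normal oil palms (Elaeis guineensis) through the peak lists of its immunoprecipitated chromatin. These 10 lists are 10 of the 38 samples of the series, the others being H3K4me3 libraries and inputs. All 10 palms were clones raised from 1 ortet, the mother palm, so both phenotypes share that source genotype, and leaf of frond 0 was sampled in every one of them. The mantled palms were 673, 687, 754, 765 and 770, and the normal palms were 753, 758, 764, 767 and 768, as labelled by fruit phenotype. Both groups were treated with the same mouse monoclonal antibody against H3K27me3, and each palm is 1 replicate plant with 1 H3K27me3 library. The tissue measured was leaf, whereas the phenotype is one of the flower and fruit.

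Mantling is an abnormality of palms regenerated from tissue culture, in which stamens and staminodes develop into carpel-like organs that surround the fruit. H3K27me3 is placed on histone H3 by Polycomb repressive complex 2 and is typical of silenced genes. In plants it usually covers whole gene bodies rather than single sites, and floral homeotic genes are a known class of its targets in leaves of Arabidopsis. A difference between phenotypes could therefore lie in how much mark a region carries and in how far it extends, as well as in whether a peak is called at all.

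Peaks sharing at least 1 bp were merged across the 10 lists into 3470 regions on 2418 numbered pieces of 919 scaffolds. Of these, 1790 regions (51.6%) had a peak in at least 1 palm of each phenotype. Level was taken from the pileup, the mean number of fragments stacked over a peak. It was divided by the library's own average, which is the header's fragment count times fragment length d over the caller's genome size, and is called the scaled pileup in multiples of that average. Domain length was the summed length of a palm's peaks within a region, in bp. Both were tested at 333 regions with a peak in at least 3 mantled and 3 normal palms, 18.6% of the shared regions. A subset of 71 regions had a peak in all 10 palms.

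The libraries differed widely in depth. Mantled palm 673 had 10374962 fragments after filtering, whereas the other 4 mantled palms had 253624 to 1865140 and the normal palms 336380 to 2056297. The geometric mean of the fragments in mantled palms was 1.75 times that in normal palms (p = 0.508, two-sided exact permutation test, n = 5 each). The lists also differed in how many of their regions carried H3K4me3, a mark of active gene starts, in at least 3 of the 9 H3K4me3 lists. That share was 70.4, 62.8, 91.8, 87.4 and 55.6% in mantled palms 673, 687, 754, 765 and 770, against 50.0, 61.6, 44.0, 83.4 and 78.2% in normal palms 753, 758, 764, 767 and 768 (exact permutation p = 0.349, two-sided, n = 5 each). Of the 333 tested regions, 319 had H3K4me3 peaks in at least 3 lists, and 285 had a local background of at least 10 times the library average. Of all 3470 regions, 1759 had H3K4me3 peaks in fewer than 3 lists, against 14 of the 333 tested. The median local background was 10.0 times the average over all regions and 57.0 times over the tested ones. The level and length results below therefore rest mostly on regions with H3K4me3 peaks and high background, unlike the regions at large.

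Neither the median level nor the median length of shared H3K27me3 regions passed a test between the phenotypes. Over the 71 regions marked in every palm, the median scaled pileup was 226, 476, 349, 352 and 367 times the average in mantled palms 673, 687, 754, 765 and 770. It was 460, 377, 343, 336 and 417 times in normal palms 753, 758, 764, 767 and 768. The mantled palms held both the highest and the lowest value and the groups overlapped. On the log2 scale the means were 8.43 ± 0.39 in mantled and 8.58 ± 0.19 in normal palms (SD, n = 5 each), a ratio of 0.899 that did not pass the exact permutation test (p = 0.516, adjusted over 5 such tests p = 0.897, two-sided). Without mantled palm 673 the log2 difference was -0.05, taken over the regions marked in every remaining palm, against -0.15 over the 71 with it. These pileups include a local background, whose median over the 71 regions was 164 to 213 times the average in single palms. Median fold enrichment over that background was 1.29, 2.18, 1.70, 1.72 and 1.87 in the mantled palms. It was 2.04, 1.94, 1.78, 1.78 and 2.07 in the normal palms, in the same orders. With fold enrichment in place of pileup the log2 difference was -0.15 (exact permutation p = 0.317, two-sided).

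Domain length did not pass the test either. The median length over the 71 regions was 1060, 608, 938, 820 and 1041 bp in mantled palms 673, 687, 754, 765 and 770, and 628, 958, 1211, 925 and 681 bp in normal palms 753, 758, 764, 767 and 768. The longest median was that of normal palm 764 and the shortest that of mantled palm 687, with the groups overlapping. The log2 means were 9.77 ± 0.33 in mantled and 9.74 ± 0.39 in normal palms (SD, n = 5 each), a ratio of 1.02 (exact permutation p = 0.881, adjusted p = 0.897, two-sided). Without mantled palm 673 the log2 difference was -0.14, taken over the regions marked in every remaining palm, in place of 0.03 over the 71.

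The mark's extent over all peaks of a list was compared next, in 3 measures, and none of them passed. Peaks covered 1574, 236, 517, 949.7 and 566 kb in mantled palms 673, 687, 754, 765 and 770, and 349, 485, 1136, 1003 and 372 kb in normal palms 753, 758, 764, 767 and 768. The geometric mean in mantled palms was 1.08 times that in normal palms (two-sided exact permutation p = 0.865, adjusted p = 0.897, n = 5 each), and the direction reversed without mantled palm 673, to a log2 difference of -0.22. Peaks of at least 1000 bp, called wide here, held 48.8 ± 12.8% of the covered length in mantled and 43.6 ± 16.1% in normal palms (SD, n = 5 each), 5.15 percentage points more (exact permutation p = 0.540, adjusted p = 0.897, two-sided). Palm 673 carried most of that gap, which was 0.26 percentage points without it, and without normal palm 753 it was 0.56 points. The share of all fragment coverage that lay in peaks was 35.9 ± 8.26% in mantled and 35.8 ± 12.1% in normal palms (SD, n = 5 each; two-sided exact permutation p = 0.897 before and after adjustment), and the geometric means stood at a ratio of 1.02.

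**Figure D1:**
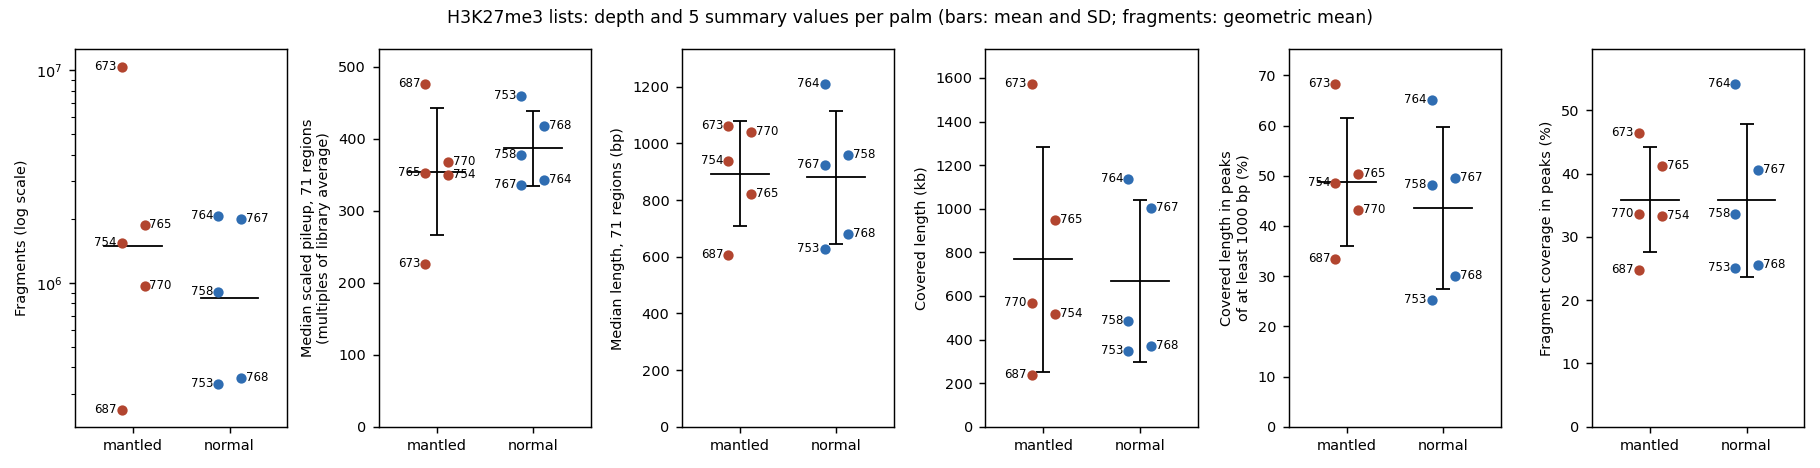
Fragments after filtering and the 5 summary values of H3K27me3 in each palm, mantled left and normal right in each panel, with palm numbers beside the points. Bars show the mean and SD (n = 5 each; geometric mean without error for fragments, on a log axis), and the groups overlap in all 6 panels, from 226 to 476 times the average for the median scaled pileup.

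All 5 summary values moved with depth. Across the 10 palms the log2 median scaled pileup fell as log2 fragments rose (Pearson r = -0.977, permutation p = 1e-05, adjusted over 5 relations p = 5e-05; Spearman rho = -0.976, permutation p = 1e-05), where 1e-05 is the smallest p the resamples can give. The log2 median length rose with depth less tightly (r = 0.779, permutation p = 0.00601, adjusted p = 0.00601; rho = 0.770, permutation p = 0.0128). Covered length rose with depth at r = 0.941 (permutation p = 3e-05, adjusted p = 7.5e-05; rho = 0.988, permutation p = 1e-05). The wide share followed at r = 0.920 (permutation p = 9e-05, adjusted p = 0.00015; rho = 0.939, permutation p = 0.00018), and the share of fragment coverage at r = 0.869 (permutation p = 0.00087, adjusted p = 0.0010875; rho = 0.939, permutation p = 0.00023). Leaving out palms 673 and 687, the farthest from the median depth, r was -0.964 for pileup, 0.771 for length, 0.901 for covered length, 0.914 for the wide share and 0.902 for fragment coverage. After each phenotype was centred on its own mean, r was -0.975, 0.795, 0.960, 0.918 and 0.890 in the same order. With log2 fragments as a covariate the difference between phenotypes in the log2 median scaled pileup was -0.0079 (exact permutation p = 0.873), against -0.15 without it. The differences in the other 4 values then had the opposite sign, with mantled palms lower, and none of them passed (exact permutation p from 0.135 to 0.770).

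**Figure D2:**
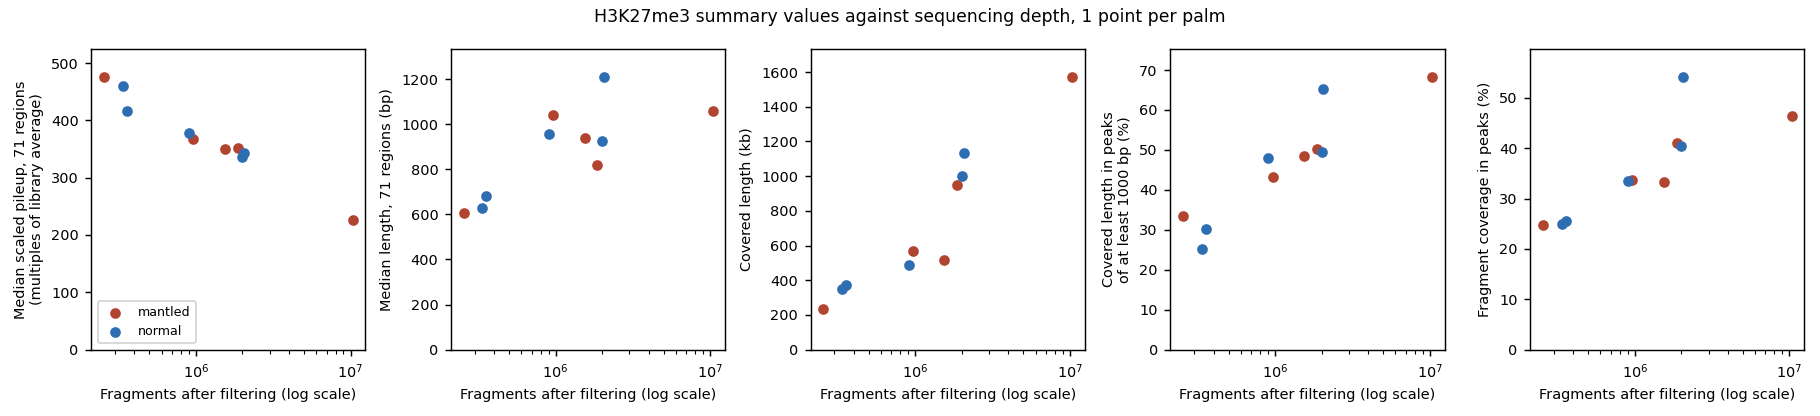
The 5 summary values of each H3K27me3 list against its fragments after filtering (log axis), with mantled palms in red and normal palms in blue. The median scaled pileup falls with depth (r = -0.977) and the other 4 values rise with it (r = 0.779 to 0.941), with points of both phenotypes along 1 trend.

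Palms of like depth could be set side by side in 4 pairs, chosen by depth after the values had been seen and given without a test. Mantled palm 770 (963067 fragments) and normal palm 758 (903822) had median scaled pileups of 367 and 377 times the average over the 71 regions, with no region more than 2-fold apart in pileup. The median of the regions' log2 differences was 0.06 in this pair. In the other pairs it was 0.12 for mantled 687 (253624 fragments) against normal 753 (336380), 0.09 for mantled 754 (1541992) against normal 764 (2056297) and 0.03 for mantled 765 (1865140) against normal 767 (1998875). The mantled palm was the shallower of the 2 in these 3 pairs, and depth went with lower pileup and longer domains across the palms. Mantled palms were higher at 45, 51, 47 and 42 of the 71 regions for palms 687, 770, 754 and 765. Length went the other way at most regions in 3 pairs, being shorter in mantled palm 770 at 51 regions, in 754 at 53 and in 765 at 55, and differed little between 687 and 753, where it was longer at 36 and shorter at 35. The median log2 length differences were 0.0018, -0.06, -0.12 and -0.03 for mantled palms 687, 770, 754 and 765 against their partners.

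Single regions were then compared in each measure with a linear model across all 333 regions (limma with a trend, Benjamini-Hochberg adjustment). For scaled pileup 0 of 333 regions (0%) passed an adjusted p of 0.05, 0 (0%) had an unadjusted p under 0.05, and the smallest unadjusted p was 0.0742. The 95% interval of a region's difference reached 1.48-fold to either side at the median region, and at 240 regions (72.1%) the whole interval lay within 2-fold. Pileup differences of 2-fold were therefore outside the interval at most regions, while differences within the interval's reach could not be resolved. Scaled pileup includes the local background. These limits therefore apply to pileup and not to the mark above background, where a 2-fold difference would change pileup by less. No region differed by over 2-fold, and at 0 of 333 regions (0%) were the phenotypes without overlap. The within-group SD of log2 pileup was 0.35 in mantled and 0.33 in normal palms at the median region. That spread includes the differences in depth between palms. With log2 fragments as a covariate 9 of the 333 regions had an unadjusted limma p under 0.05. With fold enrichment over the local background in place of pileup 8 of 333 did. In both fits 0 regions passed the adjusted p of 0.05.

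The sign of the small differences depended on the scaling. Pileup was higher in mantled palms at 114 regions and lower at 219, with a median log2 difference of -0.06, so 34.2% were higher. When each list was centred on its median over the 71 regions the share was 70.6% with a median of 0.07, with log2 fragments as a covariate it was 66.1%, and with fold enrichment over the local background in place of pileup it was 12.9%. Without mantled palm 673 it was 59.6% (164 of 275 regions). No direction for the set as a whole is therefore given.

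A single region passed under one alternative. When the lists of mantled palms 673, 754 and 765 and normal palms 767 and 768 were left out, which cover more H3K4me3 regions than the others, 2 mantled and 3 normal palms remained and 1 of 245 regions was higher in mantled palms. It lay on p5.00_sc02514_p0001 from 4760 to 7108, with a scaled pileup of 813 and 718 times the average in mantled palms 687 and 770, against 475, 662 and 383 times in normal palms 753, 758 and 764 (log2 difference 0.63 ± 0.17 SE, limma adjusted p = 0.0477). The SE and p of that fit rest on a spread pooled across the 245 regions, not on the spread of these palms at this region alone. The palms left out had 251, 423 and 333 times in mantled palms 673, 754 and 765, and 393 and 712 times in normal palms 767 and 768, so over all 10 palms the groups overlapped. Of the 245 regions 90.6% were higher in mantled palms in that fit, with a median log2 difference of 0.23, and the 2 mantled libraries left have 253624 and 963067 fragments against 336380, 903822 and 2056297 in the 3 normal ones. The part of depth in that share was not tested.

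**Figure D3:**
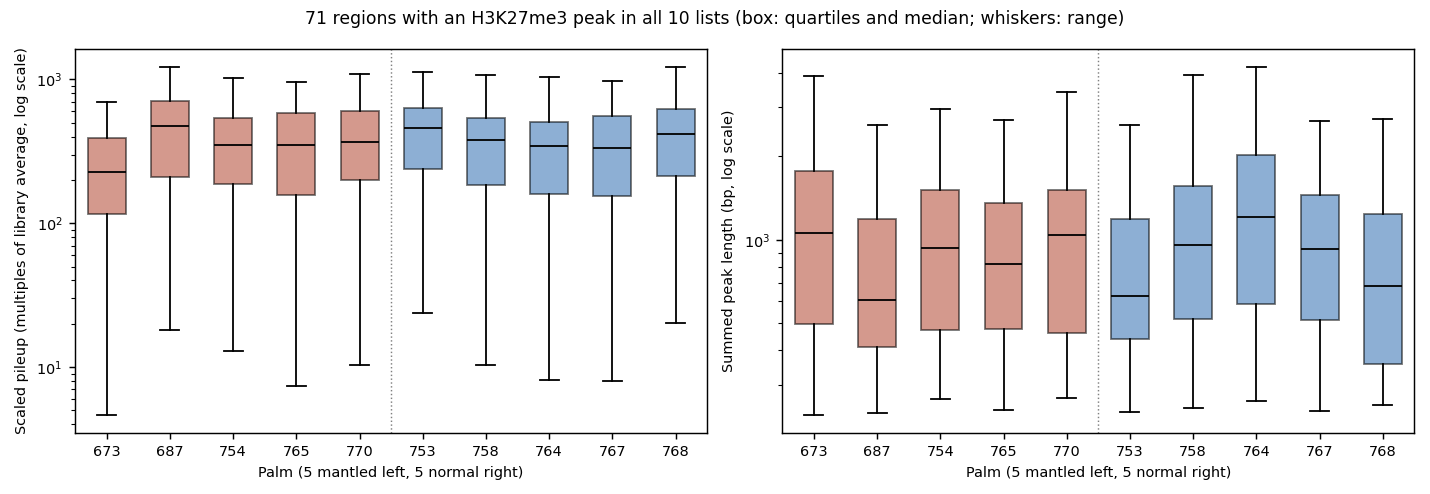
Scaled pileup (left) and summed peak length (right), both on log axes, of the 71 regions marked in every palm, 1 box per palm with mantled palms left of the dotted line and normal palms right of it. Boxes show quartiles and median and whiskers the range; the lowest pileups are those of mantled palm 673 and the highest medians those of mantled palm 687 and normal palm 753.

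Which palm was highest at a region varied with depth. Over the 71 regions, mantled palm 687 had the highest scaled pileup at 34 regions, normal palm 753 at 21 and normal palm 768 at 9, and these are the 3 shallowest libraries. Mantled palm 673, the deepest, had the lowest pileup at 65. Domains were longest in normal palm 764 at 25 regions, in normal palm 767 at 15, in normal palm 758 at 10 and in mantled palm 673 at 9, ties being counted for each palm. They were shortest in mantled palms 673 and 687 at 19 and 17 regions and in normal palms 753 and 768 at 17 and 11.

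For length, 0 of 333 regions (0%) passed the adjusted p of 0.05, and the smallest unadjusted p was 0.0150. An unadjusted p under 0.05 was found at 11 regions (3.3%), of which 10 were shorter and 1 longer in mantled palms, and 2 of the 11 differed by over 2-fold. The median interval reached 1.61-fold, and 176 regions (52.9%) had the whole interval within 2-fold, so length was resolved less well than pileup. Lengths of the phenotypes did not overlap at 8 regions (2.4%), 7 shorter and 1 longer in mantled palms, each with a peak in 6 to 9 palms. At the 71 regions marked in all palms 0 (0%) were without overlap in length, and likewise 0 (0%) in pileup. Over all tested regions the length was longer in mantled palms at 150 and shorter at 183, and 12 regions differed by over 2-fold.

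**Figure D4:**
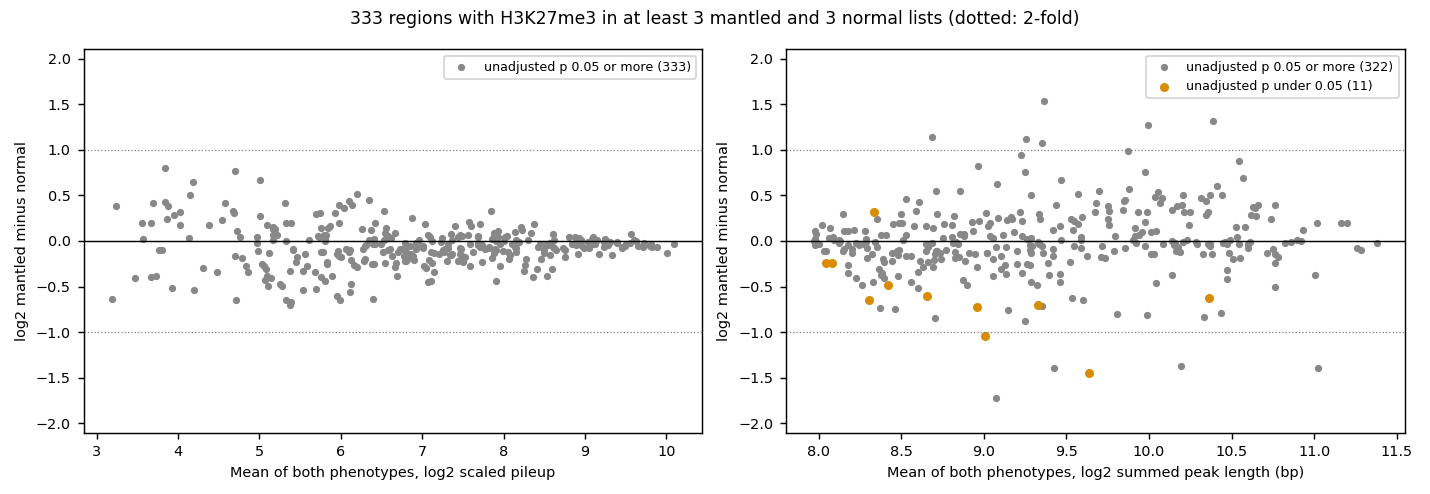
Difference between phenotypes (log2, mantled minus normal) against the mean of both, for scaled pileup (left) and summed peak length (right) at the 333 tested regions, 1 point per region. Dotted lines mark 2-fold; no region is beyond them in pileup and 12 are in length, and the 11 regions with an unadjusted p under 0.05 are in orange.

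Palms with values below run in the order 673, 687, 754, 765, 770 for mantled and 753, 758, 764, 767, 768 for normal, and a palm without a peak at the region is named or left out of the values. Positions are those of the authors' files, on pieces of a build that the sources used here do not name, and no gene annotation of that build was used. Only 3 of the 71 regions marked in every palm had a local background under 10 times the average. Over all 71 the background had a median of 190 times and reached 590 times, and all 71 also had H3K4me3 peaks in at least 3 lists.

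The strongest of the 3 was on p5.00_sc00158_p0028 from 260 to 864, with a median fold enrichment of 4.37 over a background of 1.48 times the average. Its scaled pileup was 4.64, 18.2, 13, 7.36 and 10.4 in mantled palms, against 23.7, 10.8, 8.16, 8.0 and 20.3 in normal palms. The shallow libraries 687, 753 and 768 were highest, the deepest library 673 lowest, and the groups overlapped (log2 difference -0.40 ± 0.54 SE, limma adjusted p = 0.998). Its length was 330, 397, 473, 429 and 418 bp in mantled palms and 448, 497, 577, 395 and 350 bp in normal palms, and these also overlapped.

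The second lay on p5.00_sc00158_p0027 from 13933 to 14521, a piece of the same scaffold. Its scaled pileup was 5.53, 20.2, 16.4, 7.76 and 14.9 in mantled palms, against 29.4, 10.4, 9.24, 10.2 and 28.0 in normal palms. The palms fell in a similar order, with normal 753 and 768 highest and mantled 673 lowest (log2 difference -0.39 ± 0.53 SE, limma adjusted p = 0.998). It spanned 260, 439, 471, 362 and 383 bp in mantled palms and 484, 469, 589, 415 and 356 bp in normal palms.

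The third, on p5.00_sc00108_p0037 from 5605 to 7386, was the only wide one of the 3. Its scaled pileup was 22, 67.0, 47.2, 30.7 and 50.4 in mantled palms, against 103, 42.8, 36.4, 28.1 and 52.6 in normal palms. Normal palm 753 stood highest and the other values interleaved (log2 difference -0.23 ± 0.38 SE, limma adjusted p = 0.998), and without that palm the difference was 0.05. The domain measured 1611, 1195, 1364, 1447 and 1450 bp in mantled palms and 1231, 1310, 1326, 1630 and 1613 bp in normal palms, a ratio of 0.996 between the phenotypes.

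The 5 longest domains overlapped in length between the phenotypes. On p5.00_sc00102_p0005 from 15800 to 21346 the peaks summed to 3895, 936, 2913, 2248 and 3413 bp in mantled palms, and to 1142, 3466, 4193, 2577 and 2720 bp in normal palms. The 2 short values were those of the shallow libraries 687 and 753, 1 of each phenotype. On p5.00_sc00288_p0007 from 6528 to 9748 the same 2 palms stood apart: the lengths were 2579, 1654, 2668, 2692 and 2537 bp in mantled palms and 1655, 2648, 3221, 2650 and 2664 bp in normal palms.

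The domain on p5.00_sc00067_p0013 from 22537 to 25422 varied least of the 5 longest. It measured 2840, 2595, 2595, 2623 and 2576 bp in mantled palms and 2579, 2793, 2827, 2671 and 2571 bp in normal palms, a ratio of 0.984. Its pileup was 379 to 662 times the average in mantled palms and 459 to 585 times in normal palms. Every palm lay between 2571 and 2840 bp there, over a background of 305 times the average and with H3K4me3 peaks in all 9 lists.

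On p5.00_sc00654_p0001 from 5164 to 8704 the lengths were 2329, 1223, 1130, 2425 and 2456 bp in mantled palms and 1333, 2502, 3538, 2444 and 2398 bp in normal palms. Short forms were found in mantled palms 687 and 754 and in normal palm 753 (log2 difference -0.37 ± 0.32 SE, limma adjusted p = 0.998). The domain on p5.00_sc00367_p0006 from 13223 to 17726 was marked in all 5 mantled palms and in normal palms 758, 764 and 767. It measured 2316, 240, 2514, 2333 and 1072 bp in mantled palms and 2487, 4504 and 3444 bp in the 3 normal palms, a log2 difference of -1.40 ± 0.79 SE (limma adjusted p = 0.998). Without mantled palm 687, which gave the 240 bp, the difference was -0.79. The 2 normal palms without a peak there, 753 and 768, had the shallowest normal libraries.

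**Figure D5:**
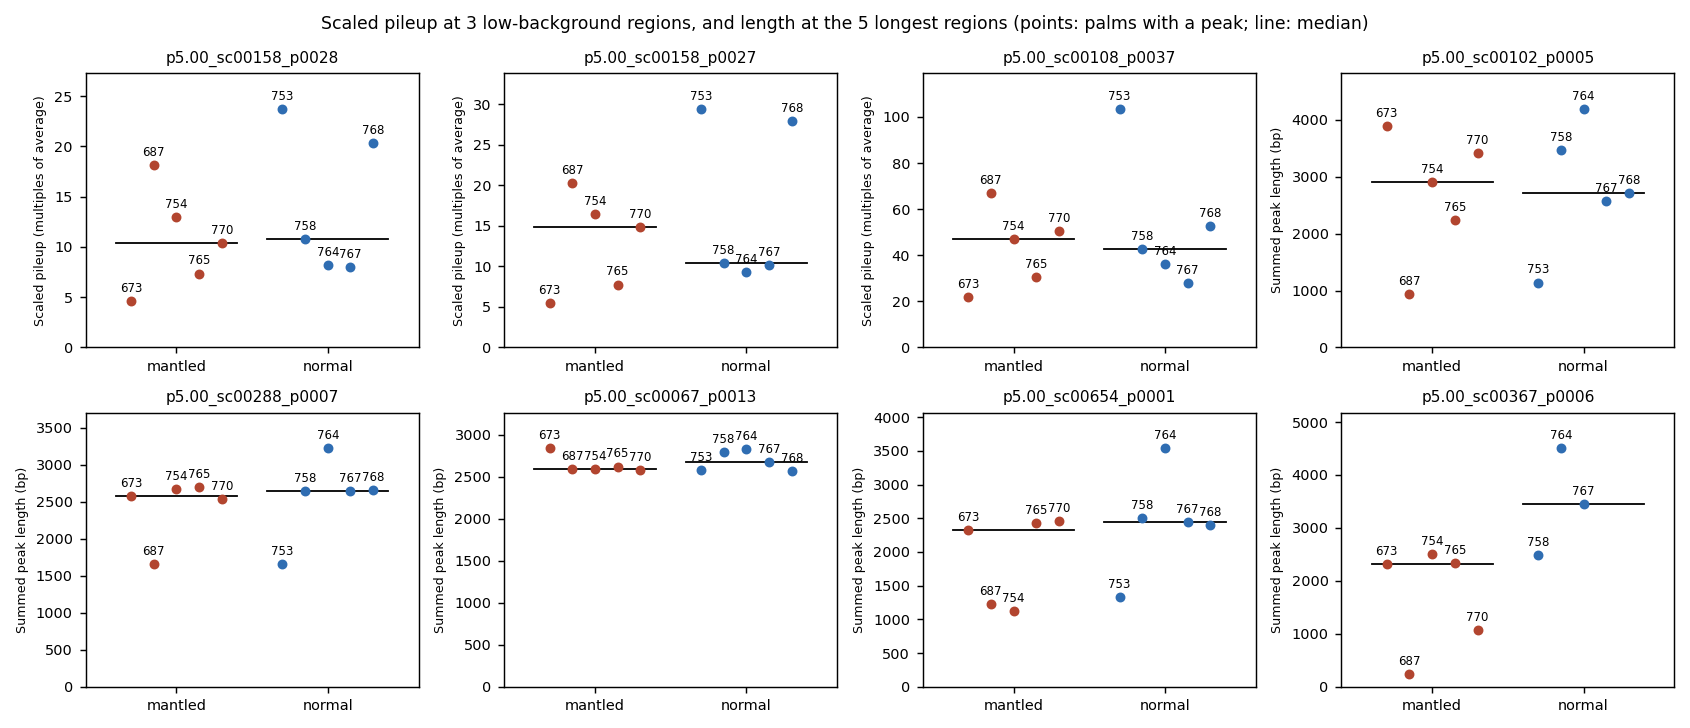
Scaled pileup of the 3 regions marked in every palm over low background, and summed peak length of the 5 regions with the longest median, 1 point per palm with a peak and a line at the median, mantled left and normal right in each panel. The phenotypes overlap in all 8 panels, most narrowly in length at p5.00_sc00367_p0006, where mantled palm 754 measures 2514 bp and the shortest normal palm 2487 bp.

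The regions with the smallest p for pileup had modest differences. Leaning lowest in mantled palms was p5.00_sc00031_p0146 from 6069 to 9272, with 112, 120, 118 and 123 times the average in mantled palms 673, 754, 765 and 770, against 161, 205, 194 and 103 times in normal palms 753, 758, 764 and 767. Normal palm 767 lay below every mantled palm, so the groups overlapped (log2 difference -0.44 ± 0.23 SE, limma unadjusted p = 0.0742, adjusted p = 0.998). Length ran the opposite way there, at 3136, 1196, 2021 and 822 bp in these mantled palms and 1800, 385, 292 and 917 bp in these normal palms.

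The next 4 in that direction were p5.00_sc00082_p0044 from 16116 to 17567, p5.00_sc00052_p0021 from 12282 to 13454, p5.00_sc01104_p0001 from 297 to 599 and p5.00_sc02746_p0001 from 153 to 2187. Their log2 differences were -0.38, -0.64, -0.64 and -0.44, with unadjusted limma p from 0.0839 to 0.126. At each of them mantled palm 673 had a peak, and its pileup was the lowest of all palms at 2 of the 4, p5.00_sc00082_p0044 and p5.00_sc01104_p0001. With log2 fragments as a covariate the 4 differences were -0.16, -0.29, -0.35 and -0.18, and without palm 673 they were -0.17 at p5.00_sc00082_p0044 and -0.32 at p5.00_sc02746_p0001, while the other 2 regions then had too few mantled palms to be tested.

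Leaning higher in mantled palms were p5.00_sc02650_p0001 from 4469 to 7184, p5.00_sc00036_p0151 from 12794 to 13380, p5.00_sc00112_p0021 from 361 to 2241, p5.00_sc00367_p0006 and p5.00_sc00315_p0007 from 870 to 2841. Their log2 differences were 0.32, 0.77, 0.39, 0.40 and 0.33, with unadjusted limma p from 0.150 to 0.239. The largest, at p5.00_sc00036_p0151, rested on 62.1, 16.6 and 38.0 times the average in mantled palms 687, 765 and 770, against 43.1, 24.2, 13 and 11.6 times in normal palms 753, 758, 764 and 767. It stands over a background of 3.11 times the average with a median fold enrichment of 7.52, the highest enrichment among the named regions. With fold enrichment in place of pileup, 4 of the 5 reversed sign, all but p5.00_sc00367_p0006.

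For length, the smallest p was at p5.00_sc00052_p0047 from 74094 to 75463, a region over a background of 10.1 times the average with H3K4me3 peaks in only 2 of the 9 lists. It measured 663, 324, 489 and 619 bp in mantled palms 673, 687, 765 and 770, against 844, 896, 957, 754 and 688 bp in normal palms 753, 758, 764, 767 and 768. Every mantled palm with a peak was shorter than every normal palm (ratio 0.614, limma unadjusted p = 0.0150, adjusted p = 0.998), and mantled palm 754 had no peak there. Its pileup overlapped between the phenotypes, at 15.7 to 56.5 times the average in mantled and 27.1 to 69.4 times in normal palms.

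The other 4 shorter regions were narrower or fell on high background. On p5.00_sc01104_p0001 the lengths were 236, 230 and 262 bp in mantled palms 673, 687 and 754, and 301, 291, 295 and 262 bp in normal palms 753, 758, 764 and 768. Here the groups touched at 262 bp (ratio 0.845, limma unadjusted p = 0.0170, adjusted p = 0.998). On p5.00_sc00175_p0017 from 2038 to 2507 the lengths were 284, 232, 348, 255 and 351 bp in mantled palms and 400, 374 and 448 bp in normal palms 758, 764 and 767 (ratio 0.714).

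On p5.00_sc00235_p0003 from 11431 to 13419 the lengths were 1115, 997 and 1083 bp in mantled palms 673, 754 and 765 and 1426, 1549 and 1985 bp in normal palms 758, 764 and 767 (ratio 0.650). In both of these the mantled values lay below the normal ones. On p5.00_sc00483_p0003 from 4117 to 4437 they overlapped, at 226 to 285 bp in 5 mantled palms and 277 to 309 bp in 3 normal palms. The adjusted limma p was 0.998 for each of these regions, and the last 3 named lay over backgrounds of 178, 205 and 99.5 times the library average.

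In the longer direction the 5 regions were p5.00_sc02534_p0002 from 24 to 495, p5.00_sc00693_p0001 from 847 to 2773, p5.00_sc00054_p0010 from 48 to 1711, p5.00_sc00547_p0003 from 8658 to 9247 and p5.00_sc00025_p0123 from 7376 to 7931. The first measured 316, 431, 407 and 308 bp in mantled palms 687, 754, 765 and 770 and 270, 327, 296, 321 and 244 bp in normal palms (ratio 1.25, limma unadjusted p = 0.0468, adjusted p = 0.998), and the groups overlapped. The second had the largest ratio of the 5, 2.91, from 1919, 383 and 1927 bp in mantled palms 673, 754 and 765 against 317, 428 and 425 bp in normal palms 753, 767 and 768. Mantled palm 754 lay within the normal range there, and with log2 fragments as a covariate the log2 difference was 0.82 in place of 1.54. The remaining 3 had ratios of 1.93, 1.21 and 1.22 with unadjusted p from 0.0787 to 0.0918.

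Regions over low background were counted separately. Of the 48 tested regions with a background under 10 times the average, pileup was higher in mantled palms at 29 and lower at 19, and length was longer at 16 and shorter at 32. At the 14 tested regions with H3K4me3 peaks in fewer than 3 lists, pileup was higher at 7 and lower at 7, and length was longer at 6 and shorter at 8. No tested region was free of H3K4me3 peaks in every list. The spread between palms was larger over the 48 low-background regions, with a median within-group SD of log2 pileup of 0.79 in mantled and 0.80 in normal palms. Over the 14 regions it was 0.31 and 0.37.

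No region passed the test on presence of a peak. Of the 3470 regions, 852 had peaks in mantled palms only and 828 in normal palms only, but 730 and 739 of these rested on 1 list. Peaks in at least 3 palms of 1 phenotype and none of the other were found at 9 regions for mantled and 16 for normal palms, and 0 regions had all 5 against none. Of the 852, 468 had a peak in mantled palm 673, and of the 828, 329 and 167 had one in normal palms 764 and 767. Regions found in 1 list alone numbered 362, 62, 24, 168 and 114 in mantled palms 673, 687, 754, 765 and 770. In normal palms 753, 758, 764, 767 and 768 they numbered 171, 46, 267, 144 and 111. The part of depth in these counts was not tested. By Fisher's exact test 0 regions (0%) passed the adjusted p of 0.05 and 3 (0.0865%) had an unadjusted p under 0.05, all 3 with more normal than mantled palms. With 5 palms against 5, a region with all against none could pass the adjustment over 3470 regions only if many others did. The test therefore could not show a difference at a lone region.

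Regions marked in more palms were higher and longer in general. The median region found in 1 list had a scaled pileup of 16.1, a length of 305 bp and a background of 4.17 times the average, against 367, 919 bp and 190 times for the 71 found in all 10. Median fold enrichment ran against this, at 2.69 for regions of 1 list and 1.83 for those of 10. These medians carry no test.

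Likeness between palms was described by the correlation of their values. Over the 71 regions the correlation of log2 scaled pileup between 2 palms had a median of 0.977 for 10 pairs of mantled palms, 0.967 for 10 pairs of normal palms and 0.975 for the 25 mixed pairs. For log2 length the medians were 0.765, 0.681 and 0.751 in the same order. After each region's median over palms was removed, the pairs centred near 0 in all 3 kinds. The medians ran from -0.16 to 0.02 for pileup and from -0.07 to 0.03 for length. Removing a median over the same palms itself draws the pairs to about 0 on average, so that centring does not compare the phenotypes. Single pairs ran from -0.59 to 0.60 for pileup and from -0.43 to 0.64 for length. These correlations are across regions, which are not independent replicates, and the pairs share palms.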

How the data were processed

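MACS2 2.1.1.20160309 was run by the authors in broad mode to make the 10 H3K27me3 peak lists, per the file headers. Each library was called on paired-end fragments against the input of the same palm, at a q cutoff of 0.05, keeping 1 fragment per position, with the genome size set to 220.965 Mb. FastQC 0.11.3, Bowtie2 2.2.5 and SAMtools 1.9 are also named in the submitters' processing notes. The genome build is not given in the sources used here, so no genes or sequences are reported. The deposited pileup is a signal averaged over a broad peak, the deposited fold enrichment is its ratio to the caller's local background, and the deposited p and q values are −log10 values. Inputs held 9528566 to 12584045 fragments and were scaled down to the ChIP library, per the file headers.

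Within a region, a palm's scaled pileup was the length-weighted mean over its peaks divided by the library average, and its length was their sum. Local background was derived from the pileup and the fold enrichment, allowing for the pseudocount of 1 that the caller adds. Palms without a peak were missing, not 0, so values at a region come only from palms where it was called. Log2 values were fitted with limma 3.58.1 (R 4.3.3) with a mean-variance trend. Single values were tested by exact permutation of the phenotypes, in 252 splits of the palms (smallest p 0.00794), and presence by Fisher's exact test, two-sided, with Benjamini-Hochberg adjustment. Relations with depth used 100000 resamples. The scripts were tested on simulated data, with 1 common SD for all regions in each measure. The noise was drawn independently for each region and palm, without the depth trend that regions of a measured list share. The simulated rates therefore need not hold for the measured lists. Of 273 unchanged regions, 1.47% were called for pileup and 0.37% for length. Simulated 2-fold changes in pileup were called at 60% of 15 regions when higher and at 53.3% of 15 when lower. For length 20% were called in each direction, so many true 2-fold differences could be missed.

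The regions and lists were chosen with earlier results of these data known. Regions named in the text are those marked in all 10 lists over a background under 10 times the average (3 exist), the 5 with the smallest p in each direction for pileup and for length, and the 5 of longest median length among those with a peak in at least 8 lists. The pairs of like depth, and the fit without palm 673 that has depth as a covariate, were added after seeing the data. The alternatives tried left out single palms, set stricter q, enrichment, background or presence limits, or changed the scaling. A list gives no counts per peak, so precision rests on the spread between palms.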

Additional observations from a re-analysis of the deposited data

Results flagged for a closer look

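Among 46 groups of 4 or 5 palms examined for a value far from the others, 3 lengths stood apart; chance alone would mark about 1 group in 20. At p5.00_sc00288_p0007 from 6528, mantled palm 687 had a log2 length of 10.69 (1654 bp), while the other 4 mantled palms measured 2537 to 2692 bp. At p5.00_sc00067_p0013 from 22537, mantled palm 673 had a log2 length of 11.47 (2840 bp), against 2576 to 2623 bp in the other 4 mantled palms. At p5.00_sc00025_p0123 from 7376, normal palm 758 had a log2 length of 8.12 (279 bp), against 247 to 250 bp in the other 3 normal palms with a peak. Palm 687 has the shallowest and palm 673 the deepest library; the part of depth in these lengths was not tested.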

How the results depend on the processing

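Calls per region were recomputed under 23 alternatives for scaled pileup, 22 for length and 16 for presence. They stayed at 0 for length and presence in those run, and for scaled pileup in all but the fit without the 5 lists that cover more H3K4me3 regions, where 1 region passed (limma adjusted p = 0.0477). The presence test could not have called a lone region under any of its alternatives. No paired analysis was possible because no palm bears both phenotypes. The changes below are in differences (mantled minus normal, log2 unless in percentage points) that passed no test; their cause was not tested. Without a change of sign, length at p5.00_sc00367_p0006 was -0.79 without palm 687 and -0.77 with the depth covariate and without palm 673, against -1.40, and length at p5.00_sc00693_p0001 was 0.82 with the depth covariate, against 1.54. With single palms left out, the median scaled pileup ranged from -0.25 to -0.05, median domain length from -0.14 to 0.18, covered length from -0.22 to 0.46, the wide share from 0.26 to 10.5 points and the share of fragment coverage from -0.079 to 0.20. Wherever palms were left out, median pileup and median length were taken over the regions marked in every palm kept. Those regions are not the same set as the regions marked in every palm of the comparison. Length ranged from -0.40 to 0.24 at p5.00_sc00102_p0005 and from -0.22 to 0.061 at p5.00_sc00288_p0007, and pileup from -0.42 to 0.053 at p5.00_sc00108_p0037. Without the 5 lists the median scaled pileup was 0.17, median length -0.23, covered length -0.66, the wide share -7.82 points and fragment coverage -0.30, and pileup was 0.11, 0.30 and 0.10 at p5.00_sc00158_p0028, p5.00_sc00158_p0027 and p5.00_sc00108_p0037. With log2 fragments as a covariate median length was -0.11, covered length -0.33, the wide share -1.43 points, fragment coverage -0.15 and pileup at p5.00_sc00108_p0037 0.064. With that covariate and without palm 673 these were -0.15, -0.29, -0.71 points, -0.10 and 0.033. At fold enrichment of at least 2 covered length was -0.90 and fragment coverage -1.64. Over regions with H3K4me3 in under 3 lists they were -0.43 and -0.45. At background under 10 times the average median length was -0.15 and median scaled pileup -0.40, each over only 3 regions. Fragment coverage was -0.00021 with equal numbers of peaks per list. Length at p5.00_sc00102_p0005 was 0.83 at a −log10 q of at least 5, and at p5.00_sc00288_p0007 0.064 with peaks merged within 1000 bp. With fold enrichment in place of pileup, values were -0.13 at p5.00_sc02650_p0001, -0.37 at p5.00_sc00036_p0151, -0.014 at p5.00_sc00112_p0021 and -0.019 at p5.00_sc00315_p0007. Fewer than 3 regions remained in all lists at a fold enrichment of at least 2 or without H3K4me3, which gave no median over regions there.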
